A study of Mus musculus with 6 samples.

Results

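The genes described here are those of the oxygen carrier of red blood cells and of the cells that make it: the adult globins Hba-a1, Hba-a2, Hbb-bs and Hbb-bt, the embryonic globins Hbb-y and Hbb-bh1, and the red cell precursor genes Alas2, Slc4a1 and Ahsp. They were taken by gene name from a table of read counts for 54532 genes. Of the 9 names, 8 had a row and Ahsp was not analysed here, 7 had at least 1 count, and 6 passed the filter on low counts and were tested. The counts come from sciatic nerves taken at postnatal day 3, with 1 library from each of 3 control mice, whose genotype is labelled WT, and 3 Dok6 mutant mice, labelled Dok6 KO. In the mutants exon 3 of Dok6 was removed by EIIA-cre, a Cre that acts in the early embryo, so that the deletion is not limited to nerve. The study kept its mice on a C57BL/6 background, and no sample received an agent. The sex of the mice was not distinguished by the authors.

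Hemoglobin is a tetramer of alpha-type and beta-type globin chains, each holding a heme. In the mouse the alpha-type genes lie together on chromosome 11 and the beta-type genes on chromosome 7, and in each cluster embryonic genes, used by the primitive red cells of the yolk sac, are replaced by adult genes in the definitive red cells of the fetal liver and bone marrow. Definitive red cells lose their nucleus before they enter the blood as reticulocytes, which still carry globin mRNA, and a peripheral nerve has no red cell precursors of its own. Alas2 is the erythroid form of the first enzyme of heme synthesis, Slc4a1 is the anion exchanger band 3 of the red cell membrane, and Ahsp encodes a chaperone of free alpha chains.

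The libraries held from 17699904 to 18678170 counts. A level of 3 counts, taken as the smallest detectable, equals 0.155 to 0.172 CPM (read counts scaled to library size with edgeR's TMM factors), and this floor covers counting error only. Dok6 itself was at 17.8, 11.9 and 17.5 CPM in control mice 1 to 3 and at 7.25, 5.77 and 7.14 CPM in the mutants, lower in every mutant. This row covers the whole gene, not exon 3 alone. The Schwann cell list of 10 markers summed to 380, 241 and 1800 CPM in the controls and to 1508, 6721 and 417 CPM in the mutants. The central nervous system list summed to between 2325 and 3584 CPM in every library. It holds Snap25 and Syt1, which are not limited to central neurons, so this sum does not measure central tissue. Mutant mouse 2 was the only mouse with counts of the Y-linked gene Ddx3y (1259, against 0 in the others), and it had 11 counts of Xist, against 13282 to 27524.

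The adult globins were lower in the Dok6 mutant nerves. Their 4 genes together took 725, 599 and 419 CPM in control mice 1, 2 and 3 and 73.0, 203 and 283 CPM in mutant mice 1, 2 and 3, which is 581 ± 154 (SD, n = 3 mice) against 186 ± 106 CPM, a ratio of means of 3.12. Every mutant lay below every control in this sum. The mutants differed among themselves by 3.88-fold and the controls by 1.73-fold. The adult globins made up between 0.00754% and 0.0715% of a library, so that they had little weight in the scaling. In whole tissue, fewer red cells and less globin RNA per red cell cannot be told apart.

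**Figure D1:**
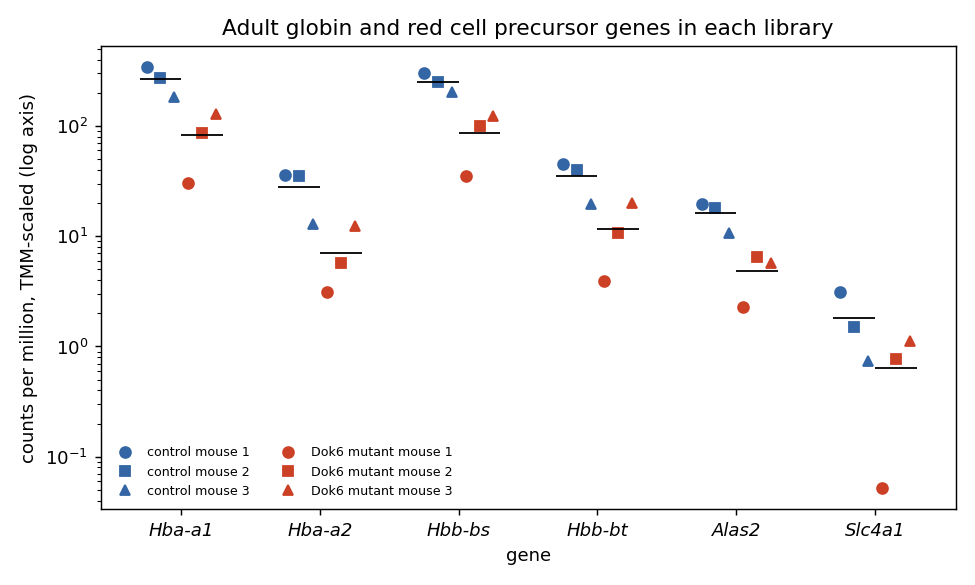
Level of 4 adult globin genes and 2 red cell precursor genes in each library, in CPM on a log axis. Each point is 1 mouse (blue, control; red, Dok6 mutant; the symbol gives the mouse number) and the black lines are means of 3 mice; mutant mouse 1 is the lowest of the 6 for every gene, from 35.5 CPM for Hbb-bs to 0.0518 CPM for Slc4a1.

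Hba-a1, the main alpha globin gene by these counts, lies on the plus strand at chr11:32283511-32284465 of GRCm38. It was at 343, 272 and 185 CPM in the controls and at 30.4, 87.2 and 128 CPM in the mutants. The groups did not overlap, and the highest mutant, mouse 3, was at 128 CPM where the lowest control, mouse 3, was at 185. In edgeR's quasi-likelihood fit this is a log2 fold change of -1.70 ± 0.44 (SE; adjusted p = 0.0379), or 3.25-fold lower in the mutants. Hba-a2, the second adult alpha gene (chr11:32296489-32297298), was at 36.3, 35.3 and 13.0 CPM in the controls and at 3.11, 5.77 and 12.3 CPM in the mutants. The same fit gave -1.99 ± 0.51 (SE; adjusted p = 0.0369), 3.98-fold lower. Here control mouse 3 and mutant mouse 3 almost touched, at 13.0 and 12.3 CPM, while the other controls were above 35 CPM.

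Hbb-bs, the main adult beta globin gene by these counts, lies on the minus strand at chr7:103826534-103828096. It was at 300.5, 252 and 202 CPM in the controls and at 35.5, 99.4 and 123 CPM in the mutants, with no overlap. The edgeR estimate was -1.55 ± 0.38 on the log2 scale (SE; adjusted p = 0.0313), 2.93-fold lower. Hbb-bt, the minor adult beta gene (chr7:103812524-103813996), was at 45.3, 40.3 and 19.7 CPM in the controls and at 3.94, 10.7 and 20.1 CPM in the mutants. Mutant mouse 3 thus lay just above control mouse 3. The log2 fold change of -1.60 was of the same size as for Hbb-bs, but with an SE of 0.51 it did not pass (adjusted p = 0.0655).

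Of the 17099 genes tested, 6.01% passed with a lower level in the mutants at an adjusted p under 0.05, and 18.7% had no overlap with every mutant lower. Among the adult globins 3 of 4 passed, all lower, and 3 of 4 had no overlap. In this fit none of the 4 passed the stricter rule of the study, which also asks for an absolute log2 fold change above 2 and which 0.111% of the genes tested met with a lower level. Hba-a2 lay at the edge of that rule and met it with DESeq2, the tool of the study (-2.01, adjusted p = 0.0275), with limma voom (-2.07, adjusted p = 0.0467) and in edgeR with RLE scaling (adjusted p = 0.0359). With an absolute log2 fold change above 1 asked for instead, 3 of the 4 adult globins passed in the edgeR fit, all lower. Of all 17099 genes tested, 74 passed with a lower level at that threshold. The median log2 fold change of the 4 adult globins was -1.65, against 0.01 over all genes tested. The calls rest on few mice. Hba-a1, Hba-a2 and Hbb-bs no longer passed without control mouse 1 (adjusted p = 0.0996, 0.0959 and 0.0819), without control mouse 2 (0.124, 0.136 and 0.111) or without mutant mouse 2 (0.0915, 0.103 and 0.0696). Hba-a2 was also lost without mutant mouse 1 (0.0838), and Hbb-bt passed without mutant mouse 3 (adjusted p = 0.0233). The direction was lower in each of these fits. Over the fits that left out 1 mouse, the log2 fold change ran from -2.18 to -1.31 for Hba-a1, from -2.67 to -1.64 for Hba-a2, from -1.90 to -1.18 for Hbb-bs and from -2.27 to -1.19 for Hbb-bt, in each case lowest without mutant mouse 3 and nearest to 0 without mutant mouse 1.

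**Figure D2:**
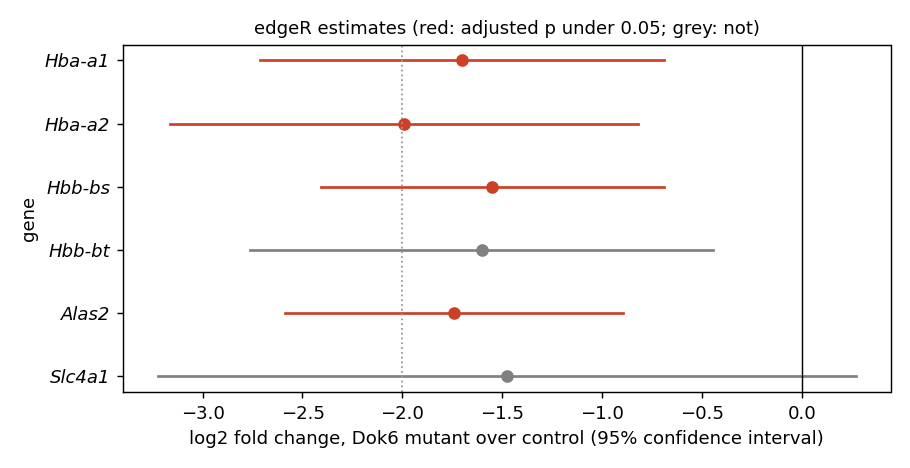
Log2 fold change of each tested gene, Dok6 mutant over control, from edgeR's quasi-likelihood fit. Points are estimates, lines are 95% confidence intervals, red marks an adjusted p under 0.05, and the dotted line is the threshold of -2 that the study used; all 6 estimates lie between -1.99 and -1.48, and only the interval of Slc4a1, from -3.22 to 0.27, includes 0.

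The genes of each adult pair are near-identical copies, which bears on how reads were divided between them. In GENCODE M21 the coding sequences of Hba-a1 and Hba-a2 have 429 bases and differ at 1 of them, and those of Hbb-bs and Hbb-bt have 444 bases and also differ at 1. The stretch of 31 coding bases around each difference is shown to make this plain, with the base that differs in capitals. Positions are counted from 1 at the A of the start codon, and the first gene of each pair carries the first base named: C381T for the alpha pair and C417T for the beta pair.
Hba-a1: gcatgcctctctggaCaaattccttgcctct
Hba-a2: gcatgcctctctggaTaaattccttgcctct
Hbb-bs: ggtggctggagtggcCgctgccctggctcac
Hbb-bt: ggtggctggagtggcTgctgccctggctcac

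More differences lie outside the coding bases. Of all stretches of 100 bases in the main transcript, 56.5% for Hba-a1 and 74.5% for Hba-a2 also occur in the other alpha gene, and 62.6% for Hbb-bs and 54.8% for Hbb-bt occur in the other beta gene. No stretch of this length in the embryonic gene Hbb-y or Hbb-bh1, or in Slc4a1, occurs in another gene. How the authors' counting placed reads that match both copies is not given in the sources used here, so the level of a single copy is uncertain and that of a pair is less so. With the counts of each pair summed, a step chosen after the data were seen, edgeR put the alpha pair at -1.73 ± 0.45 on the log2 scale (SE; adjusted p = 0.0371) and the beta pair at -1.56 ± 0.39 (SE; adjusted p = 0.0345). Over the fits that each left out 1 mouse, the alpha pair ranged from -2.22 to -1.33 and the beta pair from -1.94 to -1.18. The beta pair passed only without mutant mouse 1 (adjusted p = 0.0217) and without mutant mouse 3 (0.0222), and the alpha pair in these fits (0.0386 and 0.0202) and without control mouse 3 (0.0462).

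Within a library the balance of the chains moved far less than their level. Alpha counts were 52.3%, 51.3% and 47.2% of the adult globin counts in control mice 1, 2 and 3 and 45.9%, 45.8% and 49.7% in mutant mice 1, 2 and 3, or 50.3 ± 2.69% against 47.1 ± 2.21% (SD, n = 3 mice each). The groups overlapped. Hbb-bt took 13.1%, 13.8% and 8.91% of the Hbb-bs and Hbb-bt counts in the controls and 9.97%, 9.70% and 14.1% in the mutants. The Wilson 95% intervals of control mouse 3 (8.05% to 9.84%) and mutant mouse 2 (8.48% to 11.1%) lay wholly below those of control mice 1 and 2 and mutant mouse 3, whose lowest bound was 12.3%, so that these libraries differed beyond counting error, but not by genotype. Hba-a2 took 9.56%, 11.5% and 6.55% of the alpha counts in the controls and 9.27%, 6.21% and 8.76% in the mutants, again lowest in control mouse 3 and mutant mouse 2. These 2 mice also had the highest sums of the Schwann cell list, and the part of this in the shares was not tested.

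**Figure D3:**
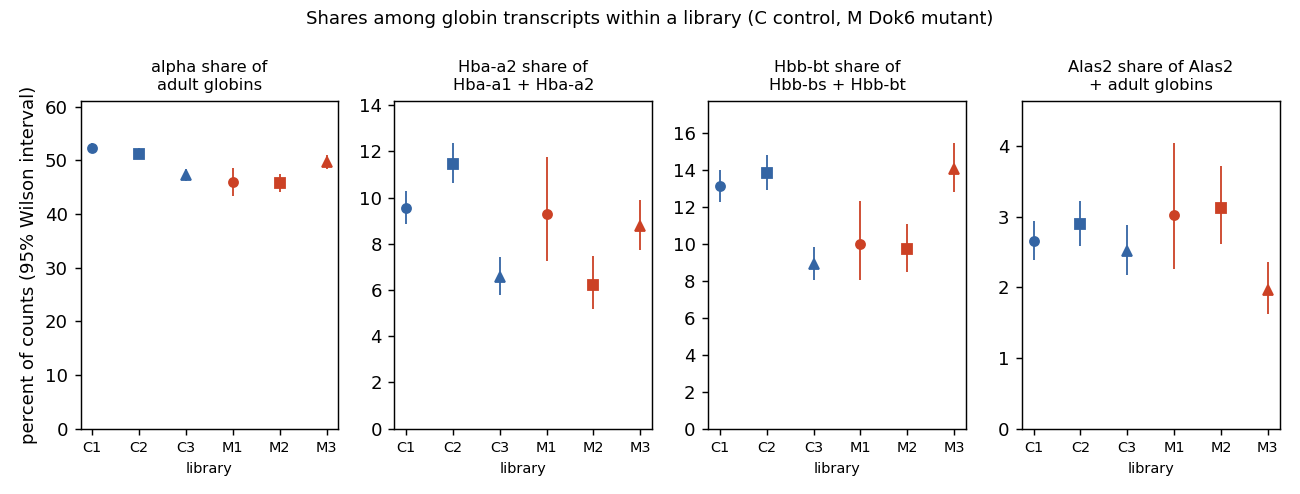
Shares of counts within each library (C, control; M, Dok6 mutant; numbers are mouse numbers), with 95% Wilson intervals that cover counting error only. The alpha share stays between 45.8% and 52.3%, the share of the minor copies Hba-a2 and Hbb-bt is low in C3 and M2 and the share of Alas2 among Alas2 and adult globin counts stays between 1.96% and 3.12%.

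Compared per kilobase of the length that the authors give for each gene, the main alpha and beta genes stood at the same level. Hba-a1 was at 328 ± 97.5 and Hbb-bs at 327 ± 64.5 CPM per kilobase in the controls (SD, n = 3 mice), and at 101 ± 60.6 and 112 ± 58.7 in the mutants. The minor genes came next, with Hbb-bt at 49.9 ± 19.3 and Hba-a2 at 42.2 ± 19.8 CPM per kilobase in the controls, which also lay within their spread. Alas2 followed at 6.72 ± 1.97 and Slc4a1 at 0.367 ± 0.252 CPM per kilobase. The mutants kept this order, apart from Hbb-bs standing above Hba-a1, within their spread.

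The embryonic globins were at or below the floor in both genotypes. Hbb-y, an embryonic beta-type gene of primitive red cells (chr7:103851749-103853216), had 2 counts in control mouse 1, 1 count in mutant mouse 3 and none in the other libraries. Hbb-bh1 (chr7:103841637-103843164) had no count in any library. Together they made up 3 of 20495 beta-type counts, or 0.0146% (Wilson 95% interval 0.00498% to 0.0430%), so that beta globin RNA was that of the adult genes in every mouse. In mutant mouse 1, with the fewest globin counts, 0 of 762 counts allows an embryonic share of up to 0.394% by the floor of 3 counts, and of up to 0.502% by the Wilson interval. The embryonic alpha-type gene Hba-x was alike, with 4 of 20475 alpha-type counts (0.0195%), of which 3 were in mutant mouse 3. Neither Hbb-y nor Hbb-bh1 was tested, and no genotype difference was detectable at this depth.

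Alas2 fell with the adult globins. This X-linked gene (chrX:150547375-150570638) was at 19.8, 17.9 and 10.8 CPM in control mice 1, 2 and 3 and at 2.28, 6.54 and 5.66 CPM in mutant mice 1, 2 and 3. Every mutant lay below every control, and edgeR estimated a difference of -1.74 ± 0.37 on the log2 scale (SE; adjusted p = 0.0225), or 3.35-fold. It no longer passed without control mouse 1 (adjusted p = 0.0597) or control mouse 2 (0.0960), and passed without mutant mouse 2, the mouse with Y-linked counts (log2 fold change -2.02, adjusted p = 0.0398). Apex2, a DNA repair gene on the opposite strand, shares exon bases with Alas2, and 11.0% of the stretches of 100 bases in the main Alas2 transcript also occur in Apex2. The use of strand in counting is not given in the sources used here. Apex2 itself was at 6.36, 6.53 and 4.74 CPM in the controls and at 6.99, 6.64 and 5.98 CPM in the mutants, so the groups overlapped.

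As a share of Alas2 and adult globin counts together, Alas2 was at 2.65%, 2.89% and 2.51% in the controls and at 3.03%, 3.12% and 1.96% in the mutants. The means were 2.69 ± 0.193% and 2.70 ± 0.645% (SD, n = 3 mice each), so this share differed between the genotypes by less than its spread between mice. Mutant mouse 3 had the lowest share, with an interval of 1.62% to 2.36%, below that of control mouse 1 (2.39% to 2.94%).

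Slc4a1 (chr11:102348824-102366203) had few counts, with 55, 26 and 13 counts in the controls and 1, 14 and 21 counts in the mutants. In CPM these are 3.15, 1.49 and 0.742 against 0.0518, 0.763 and 1.11, and mutant mice 2 and 3 lay above control mouse 3. The edgeR estimate of -1.48 ± 0.77 on the log2 scale (SE; 95% confidence interval -3.22 to 0.27) did not pass (adjusted p = 0.213). Of the precursor genes measured, 1 of 2 passed, lower in the mutants, against 6.01% of all genes tested. Without control mouse 1 the Slc4a1 estimate was -0.80 and without mutant mouse 3 it was -2.14.

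Promoters of adult globins and Alas2 are shown because Hba-a1, Hbb-bs and Alas2 were lower together, with Hbb-bt as the near-identical copy of Hbb-bs, while Hbb-y, from the same cluster as Hbb-bs, was hardly read. RefSeq windows on GRCm38.p6 matched 6 of the 9 genes. The RefSeq starts lie inside the GENCODE genes whose coordinates are given above, so each window reaches into that gene. The 200 bases before the RefSeq start are printed 5′ to 3′ on the strand of the gene, for Hba-a1 at chr11:32283472-32283671 (plus), Hbb-bs at chr7:103827929-103828128 (minus), Hbb-bt at chr7:103813924-103814123 (minus), Hbb-y at chr7:103853208-103853407 (minus) and Alas2 at chrX:150547217-150547416 (plus). Capitals mark matches on either strand to CACCC (the core of a box bound by KLF-type factors), to CCAAT (bound by CCAAT factors), to TATAA (bound by the TATA-binding protein) and to GATAA (bound by GATA factors).
Hba-a1: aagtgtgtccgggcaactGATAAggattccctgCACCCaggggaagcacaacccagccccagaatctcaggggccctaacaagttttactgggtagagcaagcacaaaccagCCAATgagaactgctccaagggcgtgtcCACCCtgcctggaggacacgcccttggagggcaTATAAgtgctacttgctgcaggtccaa
Hbb-bs: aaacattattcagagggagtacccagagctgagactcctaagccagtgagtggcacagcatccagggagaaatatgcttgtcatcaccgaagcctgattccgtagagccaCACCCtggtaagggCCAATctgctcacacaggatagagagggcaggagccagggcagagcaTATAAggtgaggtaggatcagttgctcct
Hbb-bt: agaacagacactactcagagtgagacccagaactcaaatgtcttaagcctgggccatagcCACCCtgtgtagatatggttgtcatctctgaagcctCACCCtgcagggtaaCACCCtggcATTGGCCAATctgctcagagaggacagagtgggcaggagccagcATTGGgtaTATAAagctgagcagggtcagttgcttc
Hbb-y: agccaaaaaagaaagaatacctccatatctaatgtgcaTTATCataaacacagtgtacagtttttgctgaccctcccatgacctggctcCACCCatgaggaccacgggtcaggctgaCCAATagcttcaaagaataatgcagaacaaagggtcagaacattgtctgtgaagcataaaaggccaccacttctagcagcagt
Alas2: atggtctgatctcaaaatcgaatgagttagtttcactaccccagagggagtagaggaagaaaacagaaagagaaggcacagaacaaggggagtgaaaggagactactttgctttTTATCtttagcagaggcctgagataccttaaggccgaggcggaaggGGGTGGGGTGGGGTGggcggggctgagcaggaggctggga

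Hba-a1, Hbb-bs and Hbb-bt each held the first 3 of these motifs. In Hba-a1 the CCAAT match began 88 bases before the start, the nearer CACCC match 60 and the TATAA match 27, and a second CACCC match and a GATAA match lay farther out, at 167 and 182 bases. In Hbb-bs the order was CACCC at 90, then CCAAT at 76 and then TATAA at 29 bases. Hbb-bt had the same order on the strand of the gene, at 89, 75 and 28 bases, with further CACCC matches at 104 and 140 bases and with CCAAT on the opposite strand at 36 and 80 bases, the latter directly beside the match at 75. Hbb-y held CACCC at 111 bases, CCAAT at 83 and GATAA on the opposite strand at 162, with no TATAA in this window. Alas2 held 3 adjoining CACCC matches and 1 GATAA match, all on the opposite strand, but no match to the other motifs. Hba-a2 is not printed, since 297 of the 297 bases that its 300-base window shares with that of Hba-a1 are identical once shifted by 3. Among 32851 RefSeq windows of the same length, 45.5% held CACCC, 29.3% held CCAAT, 18.5% held TATAA, 18.1% held GATAA, and 2.05% held the first 3 together. A match of letters is a description and not a binding site.

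The other genes of heme synthesis showed no call. Of the 13 further genes of heme synthesis and its transporters, all were tested and none passed in edgeR, where 6.01% of all genes tested passed lower and 8.62% higher, and 1, Slc25a39, had an unadjusted p under 0.05. Their median log2 fold change was 0.08. Their most abundant member was Slc25a39, a mitochondrial carrier, with a log2 fold change of 0.19 (adjusted p = 0.131 from edgeR). The largest increase was 0.38 for Cpox, coproporphyrinogen oxidase (adjusted p = 0.331), and the largest decrease was -0.18 for Slc25a38, a mitochondrial glycine carrier (adjusted p = 0.295). Most of these genes serve heme synthesis in all cell types, and their summed level was 408 ± 10.4 CPM in the controls and 431 ± 25.6 CPM in the mutants (SD, n = 3 mice each).

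Of 16 genes of the red cell membrane and its skeleton, 9 were tested. Ank1, an ankyrin, and Tmod1, a tropomodulin, passed and were higher in the mutants, with log2 fold changes of 0.50 (adjusted p = 0.0214 from edgeR) and 1.30 (adjusted p = 0.0313), where 8.62% of all genes tested passed with a higher level. None passed with a lower level. Sptb, a spectrin that neurons also use and the most abundant of the list, had a log2 fold change of 0.14 (adjusted p = 0.241). Gypc, glycophorin C, had the largest estimate, 1.68 (adjusted p = 0.0532), and Epb41, an erythrocyte skeleton protein, the lowest, -0.37 (adjusted p = 0.0620). Without the filter on low counts both passed (adjusted p = 0.00400 and 0.0311). Some members largely confined to red cells were hardly read: Epb42 had from 0 to 4 counts a library, and Icam4 none, while Rhag had 0, 1 and 0 counts in the controls and 3, 16 and 1 in the mutants.

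Of the erythroid transcription factors, Gata1 had from 0 to 8 counts a library and Klf1 from 2 to 12, and both failed the filter. Nfe2 had 0, 2 and 1 counts in the controls and 8, 3 and 8 in the mutants, and Gfi1b had 4 and 2 counts in mutant mice 2 and 3 and none elsewhere. Of 11 genes on this list 7 were tested and none passed in edgeR, where 6.01% of all genes tested passed lower and 8.62% higher, and 1, Zfpm1, had an unadjusted p under 0.05. Their median log2 fold change was -0.08. Ldb1, the most abundant and widely used, was at -0.05 (adjusted p = 0.700 from edgeR). Estimates ran from -0.30 for Zfpm1, a partner of GATA factors (adjusted p = 0.144), to 0.43 for Myb (adjusted p = 0.353).

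Of 19 genes that are high in late erythroid cells, 13 were tested. Mkrn1, an E3 ubiquitin ligase, passed with a lower level (log2 fold change -0.42, adjusted p = 0.0428 from edgeR), and Slc38a5, an amino acid transporter, with a higher level (1.33, adjusted p = 0.0185), where 6.01% of all genes tested passed lower and 8.62% higher. The others did not pass, among them Prdx2, a peroxiredoxin and the most abundant, at -0.18 (adjusted p = 0.189), and Isg20, an exonuclease with the lowest estimate, at -0.66 (adjusted p = 0.472). The list as a whole leaned lower, with a median log2 fold change of -0.22 against 0.01 over all genes tested. Of the 13 tested genes, 9 had a negative estimate and 4 a positive one. Groups did not overlap for 3 genes lower in the mutants and for 1 higher. Its total level was 1138, 1209 and 1181 CPM for control mice 1, 2 and 3. For mutant mice 1, 2 and 3 it was 1064, 1024 and 1023 CPM, lower in every mutant. The 6 genes that failed the filter did not move one way. Hemgn had counts of 3 in control mouse 1 and 9 in mutant mouse 2 and none in the others, and Tspo2 had at most 4 in any library. Trim10 had 14, 6 and 5 counts in the controls and 0, 2 and 7 in the mutants, whereas Trim58 had 5, 4 and 5 against 13, 8 and 3. Ctse, cathepsin E, had 5, 1 and 2 counts against 53, 11 and 1, and without the filter on low counts it passed with a higher level (adjusted p = 0.0431 from edgeR). Car1, a carbonic anhydrase, had from 1 to 6 counts in both groups.

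**Figure D4:**
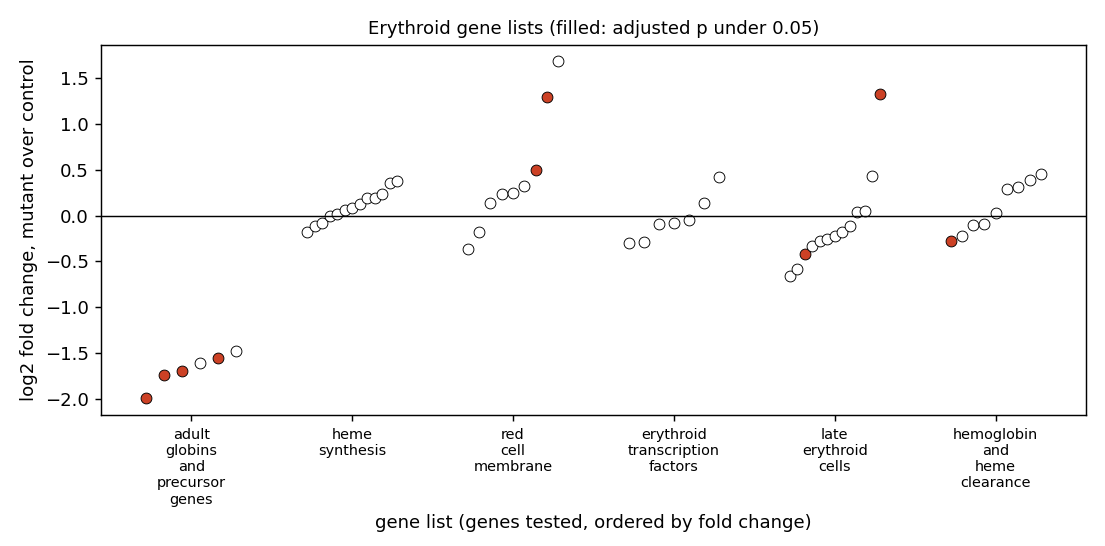
Log2 fold change, Dok6 mutant over control, of the tested genes of each list; each point is a gene, and filled points have an adjusted p under 0.05 in edgeR. The 6 tested globin and precursor genes lie at -1.48 or lower, whereas no gene of the 5 other lists has an estimate below -0.66.

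The genes that clear free hemoglobin and heme were compared as well. Of 11 genes, 9 were tested and 1 passed: Slc48a1, a heme transporter, with a log2 fold change of -0.28 (adjusted p = 0.0469 from edgeR; 0.0648 without the filter on low counts, which ends the call), where 6.01% of all genes tested passed with a lower level. Lrp1, a scavenger receptor and the most abundant, was at 0.29 (adjusted p = 0.228) and Blvrb, biliverdin reductase B, which had the largest estimate, at 0.46 (adjusted p = 0.0730). Hp, the gene of haptoglobin, had 4, 4 and 8 counts in the controls and 9, 25 and 14 in the mutants, and did not pass the filter.

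Globins of other cells had estimates closer to 0 and did not pass. Cygb, cytoglobin, which fibroblast-type cells express, was at 57.1, 51.0 and 55.6 CPM in the controls and at 51.1, 40.1 and 47.7 CPM in the mutants, with a log2 fold change of -0.24 (adjusted p = 0.169 from edgeR). Ngb, the neuronal globin, had one of -0.19 (adjusted p = 0.522). The theta-type genes Hbq1a and Hbq1b, which lie in the alpha cluster next to Hba-a1 and Hba-a2, had from 1 to 6 counts a library and were not tested.

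Markers of blood vessels and of other blood cells were compared with the adult globins. The 10 endothelial markers summed to 349, 258 and 214 CPM in the controls and to 447, 356 and 466 CPM in the mutants, each mutant above each control. All 10 had a positive log2 fold change, 3 (Kdr, Tek and Emcn) passed against 8.62% of all genes tested, and 5 had no overlap with every mutant higher, as did 19.6% of all genes tested. Adult globin CPM per CPM of endothelial markers came to 2.08, 2.32 and 1.96 in the controls and 0.163, 0.571 and 0.609 in the mutants. The groups lie farther apart on this scale because the divisor was itself higher in every mutant. The 12 platelet markers summed to between 13.2 and 15.1 CPM in the controls and between 9.75 and 11.6 CPM in the mutants, lower in every mutant, and of the 4 tested 1, Gp1ba, passed with a lower level, against 6.01% of all genes tested. The 12 neutrophil markers (4.91 to 10.6 against 7.14 to 31.6 CPM) and the 10 macrophage markers (128 to 180 against 179 to 201 CPM) had no gene that passed, and the 12 lymphocyte markers summed to at most 8.5 CPM in any library.

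The mutant libraries also differed from the controls in markers of other tissues. Skeletal muscle markers summed to between 21.1 and 33.1 CPM in the controls and to 706, 358 and 135 CPM in mutant mice 1, 2 and 3, and 9 of the 11 tested passed with a higher level, against 8.62% of all genes tested. Among the mutants this sum ran in the reverse order of the adult globins, at 73.0, 203 and 283 CPM. DRG neuron markers summed to between 299 and 346 CPM in the controls and to 479, 1123 and 1085 CPM in the mutants, where 9 of 12 passed with a higher level, against the same 8.62%. The part of these tissues in the globin result was not tested.

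**Figure D5:**
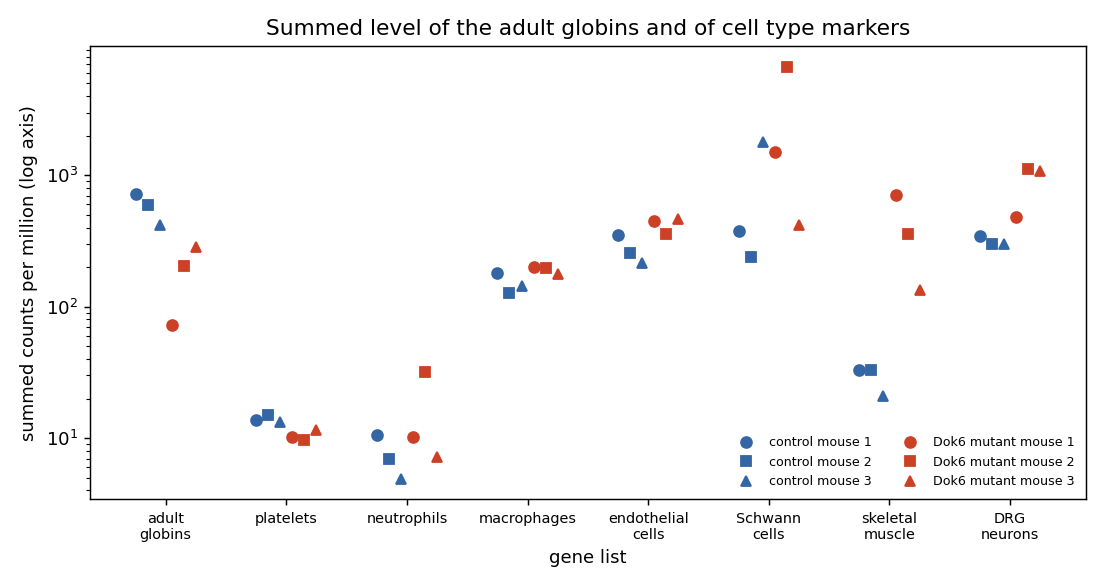
Summed CPM of the adult globins and of lists of cell type markers in each library, on a log axis. Points are single mice (blue, control; red, Dok6 mutant); the adult globins (73.0 to 283 against 419 to 725 CPM) and platelet markers are lower in every mutant, and endothelial, skeletal muscle and DRG neuron markers are higher in every mutant.

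Among the 12319 genes with a mean of at least 5 CPM, the pattern most like that of the summed adult globins was sought as the smallest root mean square difference of centred log2 CPM over the 6 libraries. Hba-a1, Hbb-bs and Hbb-bt, which enter the sum, ranked 1 to 3, Alas2 ranked 4 with a difference of 0.236, and Hba-a2 ranked 5 with 0.362, whereas the median over all genes was 1.10. Alas2 was thus closer to the sum than any gene outside it. The next 8 were Gm43300 (0.412), Gm33869 (0.555), Gm26917 (0.569), Gm43660 (0.591), Armcx5 (0.605), Glcci1 (0.613), mt-Nd3 (0.647) and Per1 (0.661), none of which is on the erythroid lists. Gm43300 was at 17.1, 21.7 and 17.2 CPM in the controls and at 4.40, 8.22 and 9.42 CPM in the mutants, with a log2 fold change of -1.34 (adjusted p = 0.0183 from edgeR). Per1, a circadian clock gene, was at 120, 105 and 49.1 CPM in the controls and 31.2, 29.4 and 92.7 CPM in the mutants and did not pass (adjusted p = 0.245). This ranking is a description over 6 libraries, which differ in genotype and in tissue markers at once.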

How the data were processed

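The authors sequenced nerve RNA of 6 mice (3 per genotype, 1 library each) on an Illumina NovaSeq. The labels name the NEBNext Ultra RNA kit and the methods its Directional version, and whether the mice of these RNA libraries were perfused is not given in the sources used here (the methods name perfusion for protein extracts and fixed tissue). The deposited values are counts, whole reads per gene without normalization. The submitters' processing notes name the build mm10. The aligner, counter and use of strand are not given in the sources used here. The authors' gene lengths, in bases, served only for levels per kilobase.

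Columns were matched to samples by genotype and mouse number. The test was run in edgeR 4.0.16 under R 4.3.3 (filterByExpr by genotype, 17099 genes kept, TMM, quasi-likelihood test, all 6 libraries, no block), with Benjamini-Hochberg adjustment over all genes tested. A gene passed at an adjusted p under 0.05. Standard errors come from the F statistic. P-values measure the spread between mice, and an exact permutation test of 3 against 3 cannot go below 0.1. Shares carry Wilson 95% intervals (scipy 1.17.1). The members and gene lists were chosen with earlier results of these data known. Genes named were the members, and from each list of red cell genes the most abundant, the largest increase and decrease and those that passed, plus red cell genes near 0, Hp and Apex2 named after their values were seen. Alternatives were DESeq2 1.42.0, limma 3.58.1 voom, other scalings, filters and fold thresholds, a replicate block and leaving out each mouse. The code was tested on simulated data. Coordinates and transcripts are from GENCODE M21 on GRCm38, which held 54409 of the 54532 identifiers, and promoters from RefSeq on GRCm38.p6.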

Additional observations from a re-analysis of the deposited data

How the results depend on the processing

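Each of the 6 tested genes kept a lower level in the mutants under every alternative that gave it a value; Slc4a1 had none with at least 10 counts required in every library. DESeq2, limma voom, the 4 other scalings and the stricter filter on low counts left the same number of adult globin calls (3) and precursor calls (1), and testing without a filter made 4 adult globin calls. The count over all genes, 2502, became 686 with an absolute log2 fold change above 1, among them 3 adult globins and 1 precursor gene. Above 2 it became 204, with 0 adult globins and 0 precursor genes called in edgeR with TMM and all 6 libraries. Hba-a2 was called above 2 with DESeq2, limma voom or RLE scaling. With library totals alone 25.4% of the called genes were lower, against 41.1% with TMM. Leaving out each mouse gave 68 to 2904 genes, 0 to 4 adult globins and 0 to 1 precursor genes, and without control mouse 2 the count over all genes was 68. With the replicate number as a block in edgeR, 562 genes, 0 adult globins and 0 precursor genes passed, although all 4 adult globins and 1 precursor gene had an unadjusted p under 0.05; without the block DESeq2 called 3 and 1. Same-numbered mice did not deviate together (correlations of -0.01, -0.17 and -0.24 across genes). With deviations centred within so few mice, this cannot show whether they shared a litter or batch. The study calls the controls of this comparison littermates, and the labels give same-numbered mice only the number in common. The embryonic globins gave 0 calls in edgeR without a filter, with 0 at an unadjusted p under 0.05, and DESeq2 gave Hbb-y no adjusted p; at 0 to 2 counts a library, depth limits them.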
